A study of Mus musculus with 3 samples.

Results

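Signalling by interleukin-6 and Lif was examined in mouse retina through 10 listed genes, which are the ligands Il6, Lif, Osm, Clcf1 and Cntf, the receptor subunits Il6st, Lifr and Osmr, the transcription factor Stat3 and its feedback inhibitor Socs3. A gene was measured where a probe set was annotated to that symbol alone, and of several such probe sets the one with the highest mean was used. By that rule 9 of the 10 genes were measured, among 22180 genes in all. Cntf had 1 probe set, annotated to 3 symbols, so no value is given for it. The genes were chosen by their role in the pathway with the log2 differences between these arrays already known, so the values below are a description and carry no test.

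The study set 3 Affymetrix whole-transcript arrays side by side, each hybridised with RNA pooled from 5 to 6 retinae of C57 mice after an injection into the vitreous. The array labelled Cav1-shRNA, named for a short hairpin RNA against the Cav1 transcript, was taken 2 days after injection. The array labelled cavtratin, a cell-permeable peptide with the scaffolding domain of caveolin-1, was taken 2 hr after injection. The AP array, which the labels name as the control without spelling out AP, was also taken 2 hr after injection. All 3 groups were injected, no array of uninjected retina or of a control taken at 2 days was used here, and agent and time differ together between Cav1-shRNA and both other arrays, so they cannot be told apart. Each group being a single array without replicates, every difference compares 2 arrays of pooled retinae and has no error between animals.

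Values are on the log2 scale as deposited, and a difference of 1 is a 2-fold difference. The expression floor was set at 6.499, the median of the 3-array means of all probe sets that carry 1 symbol. A gene was called 2-fold apart where 2 arrays differed by 1 or more and the higher of them reached the floor. Array medians were 6.01 in Cav1-shRNA, 6.06 in cavtratin and 6.07 in AP control. Cav1, the gene named by the hairpin, was at 8.26 on all 3 arrays, so the library labelled Cav1-shRNA held no lower Cav1 value, and directions drawn from it are those of the array so labelled. All 8 measured rod photoreceptor markers were above the floor on every array, with mean levels of 12.05 in Cav1-shRNA, 12.03 in cavtratin and 12.06 in AP control. Equal values were common, since 43.2% of the 11510 genes that reached the floor on any array had the same value on all 3 arrays to within 1e-09.

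Cytokines of the interleukin-6 family share the receptor subunit gp130, the product of Il6st. Interleukin-6 reaches gp130 through its own receptor Il6ra, Lif through a pair of gp130 and Lifr, and mouse oncostatin M mainly through gp130 and Osmr. The receptors activate Jak kinases, which phosphorylate Stat3, and Stat3 in turn induces Socs3, which binds gp130 and damps the signal. In the injured retina Lif is made by Muller glia and acts on photoreceptor survival, and Cntf is widely used as a protective factor for photoreceptors.

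The promoters of Il6, Lif and Socs3 are shown because the first pair had the lowest differences among the measured genes and Socs3 is the classical target of Stat3. The windows come from RefSeq on build GRCm38.p6 and run from 250 bases before to 50 bases after the start given there, and 8 of the 10 genes had such a window. Il6 lies on chromosome 5 with its window at chr5:30012864-30013163 on the plus strand, Lif on chromosome 11 at chr11:4257318-4257617 on the plus strand, and Socs3 on chromosome 11 at chr11:117969317-117969616 on the minus strand. The start used for Socs3 lies 970 bases inside the outer end of the annotated gene. Capitals mark matches to any of 6 motifs searched on both strands, with overlaps allowed. These were the NF-kB consensus, TGANTCA for AP-1, TTGCNNAA for C/EBP, TGACGT for the core of a CRE, TTCNNNGAA for a STAT site and TATAAA for a TATA box.
Il6: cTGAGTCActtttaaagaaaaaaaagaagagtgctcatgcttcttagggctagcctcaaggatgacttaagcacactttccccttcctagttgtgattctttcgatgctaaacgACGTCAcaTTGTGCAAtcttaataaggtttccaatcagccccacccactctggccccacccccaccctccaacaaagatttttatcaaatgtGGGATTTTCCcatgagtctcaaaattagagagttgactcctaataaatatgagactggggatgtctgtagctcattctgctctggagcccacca
Lif: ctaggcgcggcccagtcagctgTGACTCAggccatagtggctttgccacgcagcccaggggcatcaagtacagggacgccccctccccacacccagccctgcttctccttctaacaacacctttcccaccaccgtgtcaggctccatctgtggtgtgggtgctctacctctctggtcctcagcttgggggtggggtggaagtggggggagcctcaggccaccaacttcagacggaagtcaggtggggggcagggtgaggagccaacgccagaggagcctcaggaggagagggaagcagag
Socs3: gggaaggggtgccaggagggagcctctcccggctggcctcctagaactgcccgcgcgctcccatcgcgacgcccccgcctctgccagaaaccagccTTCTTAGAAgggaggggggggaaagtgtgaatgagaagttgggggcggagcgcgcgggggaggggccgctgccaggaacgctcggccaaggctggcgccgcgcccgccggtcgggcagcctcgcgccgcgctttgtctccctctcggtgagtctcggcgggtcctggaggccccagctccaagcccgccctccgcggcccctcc

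The Il6 window held 1 match each to the NF-kB consensus at bases 207 to 216, AP-1 at 2 to 8, the CRE core at 115 to 120 and C/EBP at 123 to 130, counted from the 5′ end of the window. The Lif window held an AP-1 match at bases 23 to 29 and no match to the other motifs. The Socs3 window held a STAT match at bases 97 to 105 and no match to the other motifs. Over all 32851 RefSeq windows of this length, 5.8% held the NF-kB consensus, 7.81% AP-1, 10.8% C/EBP, 7.51% the CRE core, 8.3% the STAT site and 13.6% the TATA box. A match describes the letters of the window and was not tested as a binding site.

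Il6, the acute-phase cytokine for which the family is named, was highest in the control. Its value was 4.34 in Cav1-shRNA, 4.98 in cavtratin and 7.31 in AP control. It reached the floor in AP control alone, with both other arrays far under it, so the folds can be too small and the order of Cav1-shRNA and cavtratin was not read. Against AP control the difference was −2.98 for Cav1-shRNA, a 7.87-fold lower value, and −2.34 for cavtratin, a 5.06-fold lower value. Only 3 of the 11433 genes that reached the floor in the Cav1-shRNA comparison, and 3 of the 11477 in the cavtratin comparison, lay as far below AP control, Il6 included. Because the arrays hold bulk retina, fewer cells of a type and less RNA per cell cannot be told apart here or in any value below.

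Lif, a gp130 cytokine of stressed retinal glia, followed the same order as far as it could be read. Its value was 6.499 in Cav1-shRNA, 6.499 in cavtratin and 7.62 in AP control. The values in Cav1-shRNA and cavtratin were equal to within 1e-09 and lay exactly at the floor, and AP control stood above both. The difference from AP control was −1.12 in each comparison, a 2.18-fold lower value. As far below AP control lay 10 of 11433 genes for Cav1-shRNA and 8 of 11477 for cavtratin. The lower value of Lif was one that many probe sets shared, 39 in Cav1-shRNA and 41 in cavtratin, whereas its AP control value belonged to 1 probe set. How far that shared value reflects the measured signal of Lif was not tested.

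Osm encodes oncostatin M, a ligand made mainly by myeloid cells and lymphocytes, and it was highest in cavtratin. Its value was 6.32 in Cav1-shRNA, 7.14 in cavtratin and 6.14 in AP control. Only the cavtratin value reached the floor. The cavtratin difference from AP control was 1.004, a 2.005-fold higher value that only just passes the 2-fold limit, and 155 of 11477 genes lay at least as far above. The Cav1-shRNA value was 0.18 above AP control with both under the floor. Osm and Lif are neighbours on chromosome 11 of GRCm38.p6, with Osm at 4236785 to 4241026 and Lif at 4257568 to 4272514, and the differences of the neighbours from AP control had opposite signs in cavtratin. The sign for Osm in Cav1-shRNA was not read, with both values under the floor.

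Clcf1, which encodes a ligand of the Cntf receptor, hardly varied. Its value was 6.95 in Cav1-shRNA, 6.96 in cavtratin and 6.95 in AP control. The cavtratin difference from AP control was 0.010, and Cav1-shRNA equalled AP control. Over the 4 measured ligands the 3 arrays therefore differed in opposite directions, with Il6 and Lif highest in AP control and Osm highest in cavtratin.

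**Figure D1:**
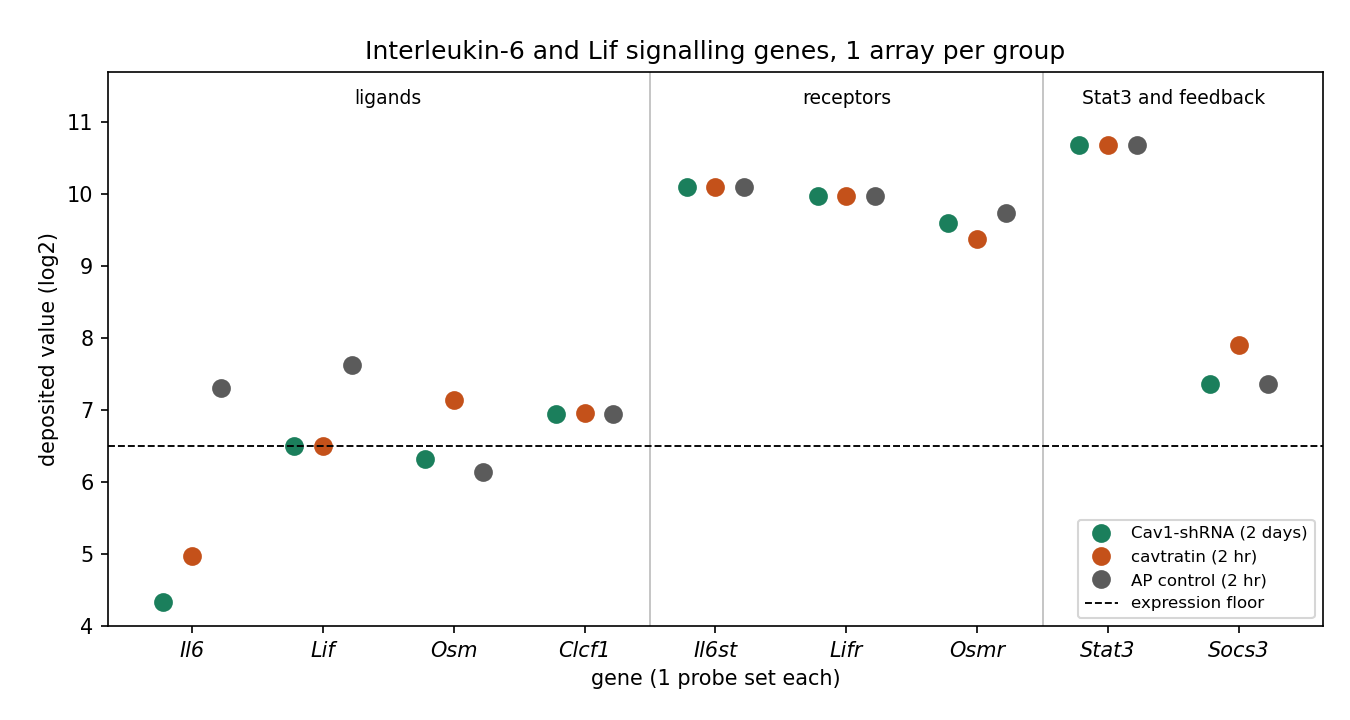
Deposited log2 value (vertical axis) of the 9 measured genes (horizontal axis), 1 point per array for Cav1-shRNA, cavtratin and AP control, with the expression floor of 6.499 dashed. Il6 at 7.31 and Lif at 7.62 stood highest in AP control, Osm at 7.14 and Socs3 at 7.91 stood highest in cavtratin, and Il6st and Lifr were level. Heights of different genes are not comparable.

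Of the receptor subunits, Il6st and Lifr were level and Osmr was not. Il6st, the shared signal transducer gp130, was at 10.10 on all 3 arrays. Lifr, which pairs with gp130 to bind Lif, was at 9.97 on all 3 arrays. Both were far above the floor and equal to within 1e-09 in every comparison, and each value belonged to 1 probe set. Equal values do not show that the transcripts were at equal levels, since 54.5% of the genes that reached the floor had equal values in cavtratin and AP control and 53% in Cav1-shRNA and AP control.

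Osmr, which encodes the oncostatin M receptor subunit, was the receptor that varied. Its value was 9.60 in Cav1-shRNA, 9.38 in cavtratin and 9.75 in AP control. AP control was highest and cavtratin lowest, with all 3 above the floor. The difference from AP control was −0.15 for Cav1-shRNA and −0.37 for cavtratin, short of 2-fold. Of the 11477 genes compared, 57 or 0.497% lay as far below AP control in cavtratin, and of 11433 genes 390 or 3.41% did so in Cav1-shRNA. In cavtratin Osm and its receptor subunit thus had differences from AP control of opposite sign.

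Stat3, the transcription factor that carries the signal to the nucleus, was at 10.69 on all 3 arrays. The cavtratin value lay 0.0021 above the other 2, which were equal. Socs3, the feedback inhibitor that Stat3 induces, was at 7.37 in Cav1-shRNA, 7.91 in cavtratin and 7.37 in AP control. Cavtratin stood above the other arrays, which were equal to within 1e-09. The cavtratin difference from AP control was 0.55, a 1.46-fold higher value short of 2-fold, and 267 of 11477 genes or 2.33% lay at least as far above. Socs3 was the 1 measured gene of the 9 with a second probe set, which was at 4.65 on all 3 arrays, under the floor. The mean of both probe sets gave a cavtratin difference of 0.27.

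The disagreement of 2 probe sets that share a gene gives a scale for these differences, although it holds no spread between animals. Over 271 genes with 2 probe sets above the floor, the SD of the disagreement was divided by the square root of 2. The result was 0.12 for cavtratin against AP control, 0.089 for Cav1-shRNA against AP control and 0.11 for Cav1-shRNA against cavtratin. The SD of the disagreement itself is larger. A gene whose probe sets both had equal values on 2 arrays enters with 0, and equal values were common, as given above. The differences of Il6, Lif, Osm, Osmr and Socs3 between cavtratin and AP control were larger than that 0.12. Those of Clcf1, Il6st, Lifr and Stat3 were smaller. Since the genes were chosen with these differences known, this compares sizes and is no test of any of them.

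Cavtratin and AP control were taken at the same time. Of the 9 measured genes, all of which reached the floor on the higher array, Osm was higher in cavtratin by 2-fold or more, and Il6 and Lif were lower by 2-fold or more. Over all 11477 genes compared, 1.36% were higher and 0.0958% lower by that rule. Above 0 lay 4 of the 9 and below 0 lay 3, and their median difference was 0, as it was over all genes compared. Since the list was chosen with this comparison known, nothing is read from its count.

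Cav1-shRNA was compared with the same AP control array, taken at an earlier time. Here 8 of the 9 genes reached the floor, and Osm did not. None of the 8 was at least 2-fold higher, where 0.341% of 11433 genes were, and Il6 and Lif were at least 2-fold lower, where 0.122% were. The median over the 9 was 0, as over all genes compared. Exactly equal to AP control were 5 of the 9 values, namely those of Clcf1, Il6st, Lifr, Stat3 and Socs3. With 53% of all genes compared also equal there, nothing is read from that count. The comparisons of Cav1-shRNA and of cavtratin share the AP control array, so the low Il6 and Lif values in both are not independent observations.

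Cav1-shRNA was set against cavtratin directly, which leaves out AP control. None of the 8 genes that reached the floor was at least 2-fold apart, where 0.0349% of 11472 genes were higher and 0.785% lower by that rule. Osm was at −0.82, with 115 of 11472 genes or 1% as far below, and Socs3 was at −0.55, with 191 genes or 1.66% as far below. Osmr was at 0.22, Lif, Il6st and Lifr were at 0, and Il6 was at −0.64 with both arrays under the floor. Osm and Socs3 were thus lower in Cav1-shRNA than in cavtratin, Osmr was higher, and the order for Il6 was not read.

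**Figure D2:**
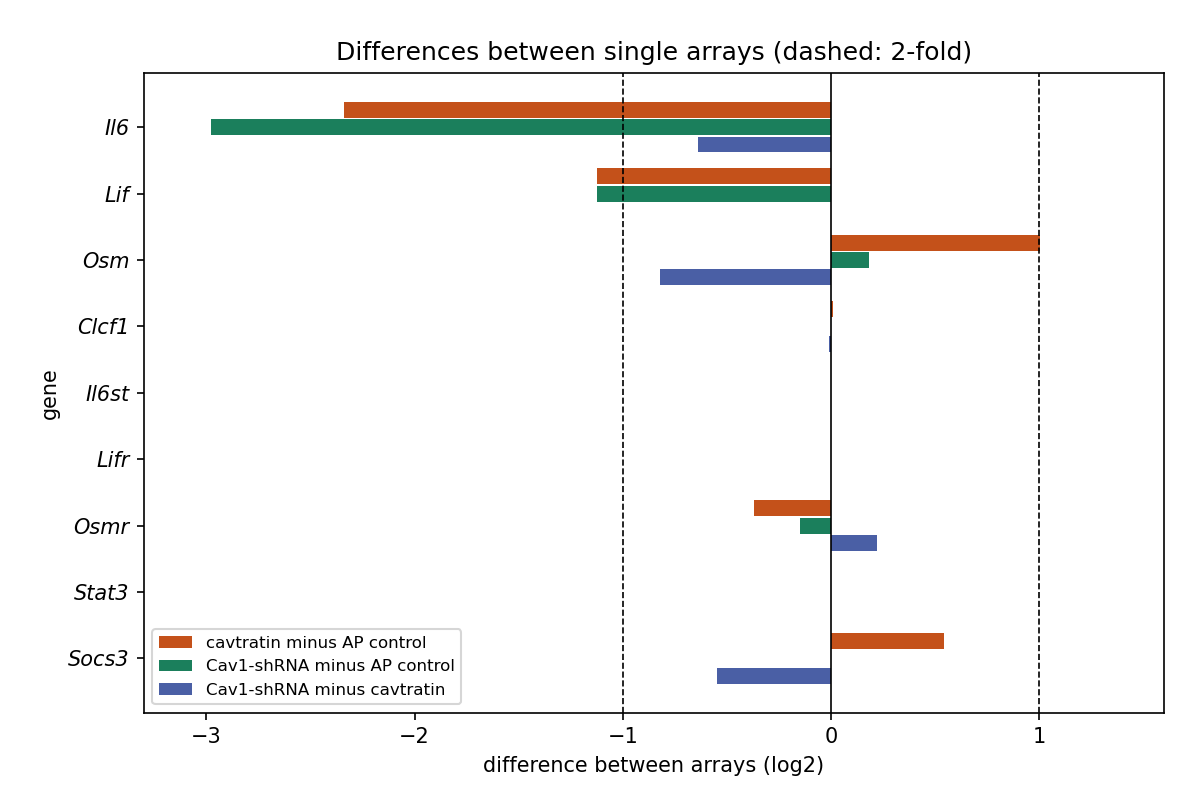
Difference between 2 arrays on the log2 scale (horizontal axis) for the 9 measured genes (vertical axis), with a bar for each of the 3 comparisons and dashed lines at 2-fold. Il6 and Lif lie past −1 in both comparisons with AP control, Osm reaches 1.004 in cavtratin minus AP control, and the bars of Il6st, Lifr and Stat3 are at or near 0.

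Other genes of the pathway were read from 6 lists of ligands, receptors, kinases, inhibitors, Stat3-responsive genes and regulators of the Il6 transcript. Of 72 genes on these lists 67 were measured. The floor was reached by 56 of the 67 in both comparisons with cavtratin and by 55 in Cav1-shRNA against AP control. Against AP control 4 of them were higher in cavtratin by 2-fold or more and 0 lower, where 1.36% and 0.0958% of all genes compared were. In Cav1-shRNA against AP control 0 were higher and 0 lower, beside 0.341% and 0.122% of all genes. In Cav1-shRNA against cavtratin 0 were higher and 3 lower, beside 0.0349% and 0.785%. The median difference was 0 in each of the 3 comparisons, as over all genes compared.

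Among 6 other measured ligands, Ebi3, a subunit of interleukin-27 and interleukin-35, had the largest difference. Its value was 6.45 in Cav1-shRNA, 6.67 in cavtratin and 6.32 in AP control. Il11, Ctf1, Ctf2 and Il31 were equal on all 3 arrays, and Il27 lay 0.021 above AP control in both other arrays. Il6ra, the interleukin-6 receptor, was at 6.83 in Cav1-shRNA, 6.92 in cavtratin and 6.81 in AP control, and Cntfr, the Cntf receptor, was at 8.35 on all 3 arrays. None of the other ligands and receptors was at least 2-fold apart in any comparison.

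Kinases and other Stat factors were led by Stat6, which carries interleukin-4 and interleukin-13 signals. Stat6 was at 7.17 in Cav1-shRNA, 7.74 in cavtratin and 6.64 in AP control, so it was 1.10 higher in cavtratin than in AP control and 0.53 higher in Cav1-shRNA. Stat2, a factor of interferon signalling, was at 8.63 in Cav1-shRNA, 9.08 in cavtratin and 8.52 in AP control. Jak1, the main kinase of gp130, was at 10.08 in Cav1-shRNA, 10.08 in cavtratin and 10.07 in AP control, and Tyk2 and Stat5b were equal on all 3. Of the 8 measured genes of this list 6 lay above AP control in cavtratin and 0 below, with a median of 0.077. Stat4, among the 6, was under the floor on all 3 arrays. Over all 11477 genes compared 2252 lay above and 2970 below.

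Inhibitors of the signal other than Socs3 differed in both directions or not at all. Socs2, which damps growth hormone signalling, was at 8.31 in Cav1-shRNA, 8.10 in cavtratin and 8.70 in AP control, highest in the control with a cavtratin difference of −0.60. Socs1, Socs4, Socs5, Socs6 and Socs7 were equal on all 3 arrays. Ptpn6, a phosphatase of blood cells also called Shp1, was at 6.69 in Cav1-shRNA, 6.86 in cavtratin and 6.57 in AP control, and so was highest in cavtratin, as Socs3 was. In each comparison 12 of the 15 inhibitors reached the floor, and none was at least 2-fold apart. In cavtratin and AP control 8 of the 15 were equal. Since 54.5% of all genes compared were also equal there, nothing is read from that count.

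Stat3-responsive genes differed in both directions. Pim1, a serine and threonine kinase induced by Stat factors, was at 7.64 in Cav1-shRNA, 8.50 in cavtratin and 7.14 in AP control. It was 1.37 higher in cavtratin than in AP control and was the 1 gene of the 25 at least 2-fold apart in any comparison. Its second probe set was at 5.33 on all 3 arrays, under the floor, and with the mean of both the cavtratin difference was 0.68, short of 2-fold. Cebpb, an acute-phase transcription factor, was at 6.81 in Cav1-shRNA, 7.38 in cavtratin and 6.67 in AP control. Lcn2, a secreted iron-binding protein, was at 11.16 in Cav1-shRNA, 11.52 in cavtratin and 10.92 in AP control. In those 3 genes, as in Socs3, cavtratin was highest.

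Steap4, a metalloreductase induced by inflammatory cytokines, was instead highest in AP control. It was at 7.71 in Cav1-shRNA, 8.04 in cavtratin and 8.65 in AP control, with a difference from AP control of −0.93 in Cav1-shRNA and −0.60 in cavtratin. AP control was likewise highest for Il6, Lif and Osmr. Over the 25 genes the median difference in cavtratin minus AP control was 0.019, with 13 above 0 and 5 below. Of 11477 genes compared there, 2252 lay above 0 and 2970 below. In Cav1-shRNA minus AP control the median over the 25 was 0.0067, with 13 above 0 and 9 below. Of 11433 genes compared there, 2876 lay above 0 and 2502 below.

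Genes known to act on the Il6 transcript were higher in cavtratin than in AP control or equal to it. The list mixes inducers of Il6, such as Il1b and Tnf, with a destabiliser of mRNA, Zfp36. Its direction as a whole is therefore not set against that of Il6. Il1b and Tnf, cytokines that induce Il6 through NF-kB, were measured well above the floor. Il1b was at 9.62 in Cav1-shRNA, 11.75 in cavtratin and 9.65 in AP control, and Tnf was at 7.87 in Cav1-shRNA, 9.38 in cavtratin and 7.34 in AP control. In cavtratin both were more than 2-fold higher than in AP control, by 2.09 and 2.04, while Il6 was lower by the values given above. Zfp36, which encodes the mRNA-destabilising protein tristetraprolin, was at 7.998 in Cav1-shRNA, 9.09 in cavtratin and 8.49 in AP control. In cavtratin 8 of the 11 measured regulators lay above AP control and 0 below, with a median of 0.46. Of all 11477 genes compared there, 2252 lay above and 2970 below. Il10, counted as above AP control in cavtratin and in Cav1-shRNA, was under the floor on every array. In Cav1-shRNA 5 of the 11 lay above AP control and 5 below, with a median of 0, where 2876 and 2502 of 11433 genes did.

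**Figure D3:**
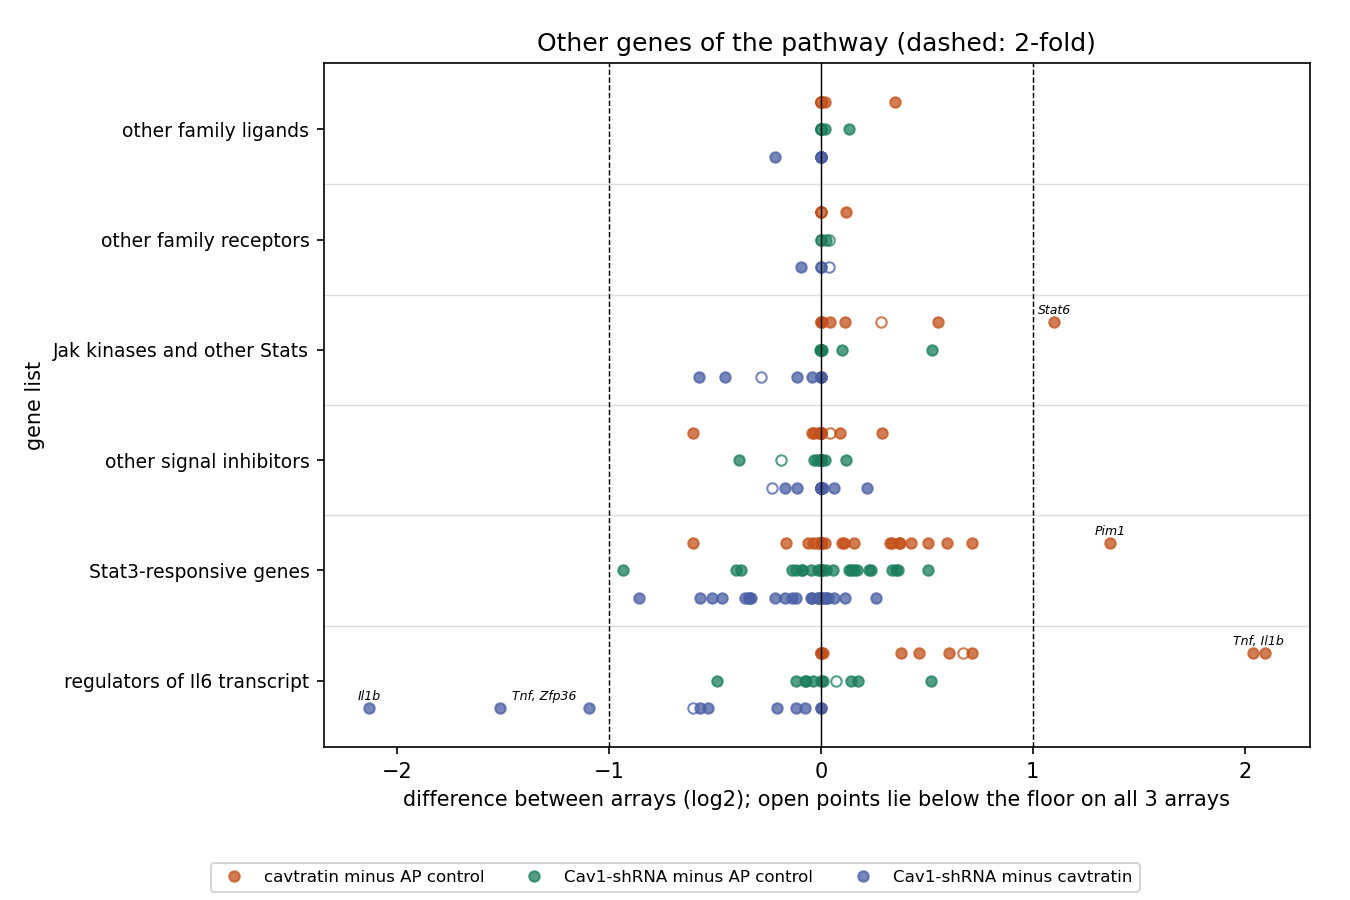
Difference between 2 arrays on the log2 scale (horizontal axis) for each measured gene of the 6 pathway lists (vertical axis), coloured by comparison, with open points for genes under the floor on all 3 arrays and dashed lines at 2-fold. Stat6 at 1.10, Pim1 at 1.37, Tnf at 2.04 and Il1b at 2.09 are the 4 genes past 2-fold in cavtratin minus AP control.

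Markers of cell types that make or receive these cytokines differed between the arrays as well. Of 15 measured neutrophil and monocyte markers, 5 reached the floor in Cav1-shRNA, 7 in cavtratin and 4 in AP control. Of all 22180 genes, 11362 reached it in Cav1-shRNA, 11406 in cavtratin and 11298 in AP control. The summed levels of the 15 markers were 89.5 in Cav1-shRNA, 97.6 in cavtratin and 83.5 in AP control. Csf3r, the granulocyte colony-stimulating factor receptor, was at 7.71 in Cav1-shRNA, 9.10 in cavtratin and 7.15 in AP control. Of the granule genes on the list, Elane, Mpo, Camp, Ngp and Ltf lay under the floor on all 3 arrays. Mmp8 reached it in cavtratin alone, at 7.05. Mmp9 reached it on all 3 arrays, at 7.39 in Cav1-shRNA, 7.92 in cavtratin and 7.19 in AP control. Ly6c2, a marker of inflammatory monocytes on the same list, was at 8.08 in Cav1-shRNA, 6.16 in cavtratin and 6.59 in AP control, highest in Cav1-shRNA. In cavtratin against AP control 8 of the 15 markers reached the floor. Of those, 6 were at least 2-fold higher and 0 lower, where 1.36% and 0.0958% of all genes compared were. In Cav1-shRNA against AP control 5 reached the floor, and 2 were at least 2-fold higher, where 0.341% of genes were. S100a8 had the largest difference on the list, at 3.74 in cavtratin. Osm and Socs3, like Csf3r and S100a8 and unlike Ly6c2, were highest in cavtratin. The part of these cells in either difference was not tested.

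Microglia and macrophage markers were on average higher in both other arrays than in AP control. Mean levels over 16 genes were 7.84 in Cav1-shRNA, 8.02 in cavtratin and 7.31 in AP control. The median difference from AP control had the reverse order, 0.51 in Cav1-shRNA and 0.18 in cavtratin. Ctss, C1qa, C1qb and Trem2 were highest in Cav1-shRNA, and Cd14, Fcer1g, Itgam and Mpeg1 in cavtratin. In Cav1-shRNA minus cavtratin 7 of the 16 lay above 0 and 7 below, where 2967 and 2231 of 11472 genes did. In each comparison with AP control 14 of the 16 reached the floor. At least 2-fold higher than AP control were 3 of them in Cav1-shRNA and 6 in cavtratin, where 0.341% and 1.36% of all genes compared were. P2ry12, a marker of resident microglia, was equal on all 3 arrays. Il6 and Lif were highest in AP control, which had the lowest mean of these markers, and the part of these cells in either difference was not tested.

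All 11 markers of Muller glia, the cells known to make Lif in the retina, were above the floor on every array. Their mean levels were 9.67 in Cav1-shRNA, 9.60 in cavtratin and 9.59 in AP control, and none was at least 2-fold apart in any comparison. Gfap, the intermediate filament protein of astrocytes and reactive Muller glia, was at 8.32 in Cav1-shRNA, 8.33 in cavtratin and 7.96 in AP control. Endothelial markers had mean levels of 7.61 in Cav1-shRNA, 7.54 in cavtratin and 7.42 in AP control, and those of retinal ganglion cells 8.89 in Cav1-shRNA, 8.82 in cavtratin and 8.92 in AP control. Lens markers were on average highest in cavtratin, with mean levels of 6.48 in Cav1-shRNA, 7.83 in cavtratin and 6.60 in AP control. Of 10 lens markers 6 reached the floor in cavtratin against AP control. Of those 6, 4 were at least 2-fold higher in cavtratin, where 1.36% of all genes compared were. The part of lens tissue in the differences of Osm and Socs3 was not tested.

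**Figure D4:**
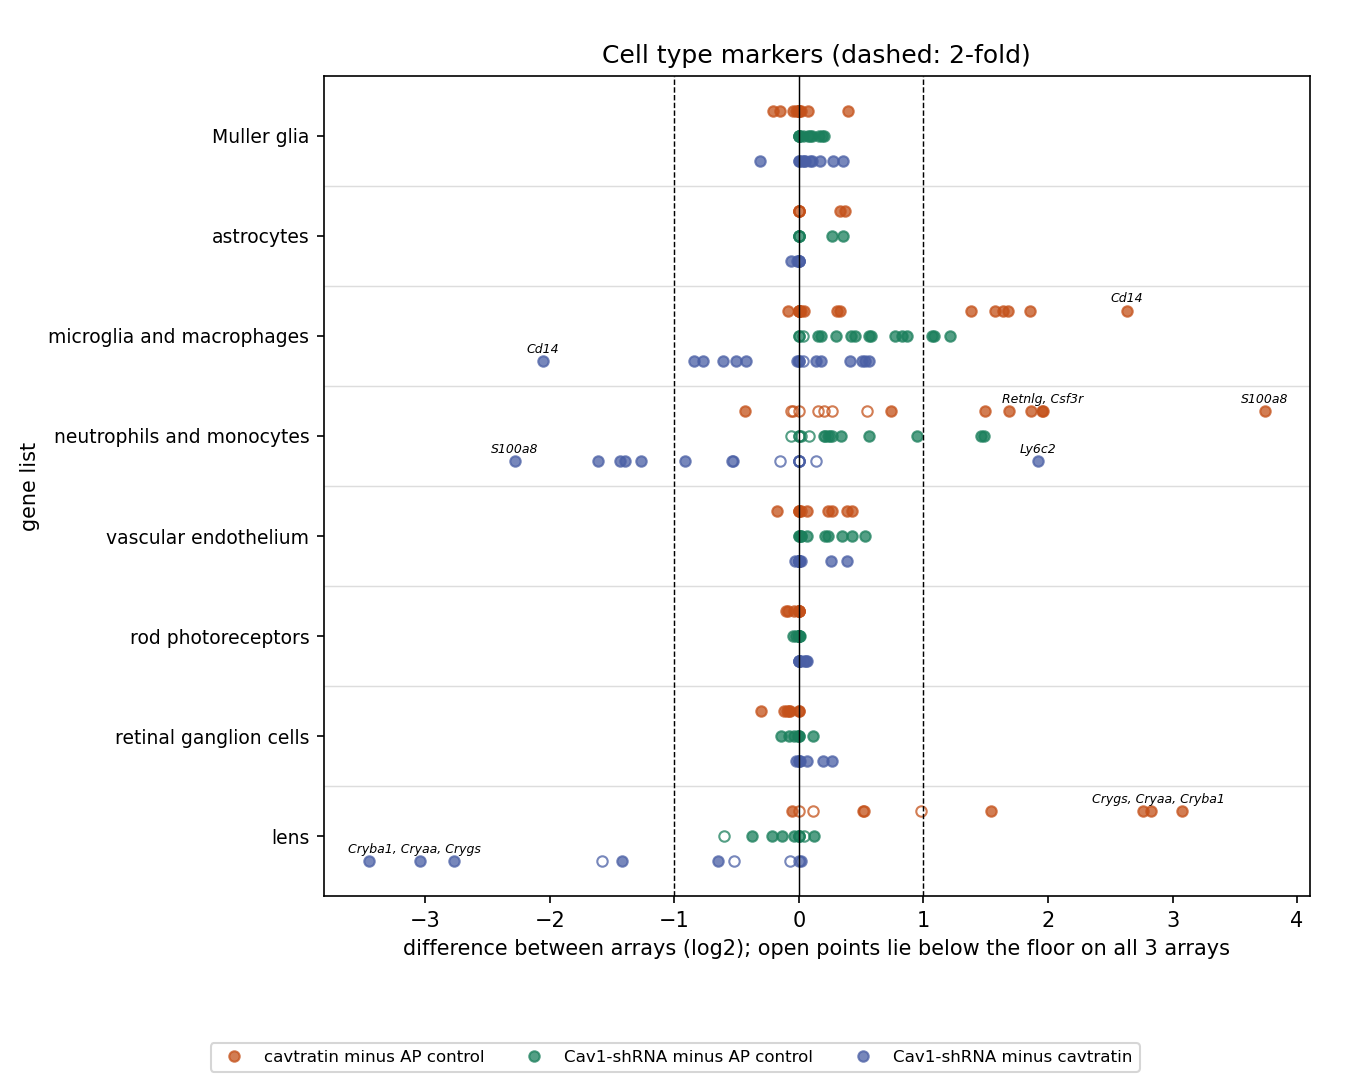
Difference between 2 arrays on the log2 scale (horizontal axis) for each measured marker of 8 cell types (vertical axis), coloured by comparison, with open points for genes under the floor on all 3 arrays and dashed lines at 2-fold. Most neutrophil, macrophage and lens markers that differ lie to the right in cavtratin minus AP control, with S100a8 at 3.74 and Cryba1 at 3.08, while Muller glia, rod and ganglion cell markers stay within 2-fold.

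Genes with the nearest pattern over the 3 arrays were named for Il6, Lif, Osm and Socs3, by the Euclidean distance between values from which each gene's own mean had been subtracted. Nearest to Il6 was Ccl2, a monocyte-attracting chemokine, at a distance of 0.15, followed by its relative Ccl7 at 0.32 and the interferon-inducible Gbp5 at 0.75. Ccl2 was at 7.46 in Cav1-shRNA, 8.04 in cavtratin and 10.58 in AP control, and unlike Il6 it was above the floor on every array. Its difference from AP control was −3.12 in Cav1-shRNA, beside −2.98 for Il6, and −2.54 in cavtratin, beside −2.34 for Il6.

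Nearest to Lif were the carbonic anhydrase gene Car13 at a distance of 0.11, Tnfaip6, a hyaluronan-binding protein of inflammation, at 0.13 and the guanylate-binding protein gene Gbp10 at 0.16. Nearest to Osm were Fmnl1, a formin of blood cells, at 0.019, Lcp2, a signalling adaptor of blood cells, at 0.030 and Psd4 at 0.056. Lcp2 was at 7.99 in Cav1-shRNA, 8.84 in cavtratin and 7.79 in AP control, above the floor throughout. Nearest to Socs3 were Ogn, a matrix proteoglycan, at 0.031, S100a11-ps at 0.036 and the glutaredoxin gene Glrx at 0.041. Ogn, S100a11-ps and Psd4 were under the floor in Cav1-shRNA and AP control. Car13, Tnfaip6 and Gbp5 were under it in Cav1-shRNA and cavtratin. Each of these genes reached the floor only on the array where it was highest. The other near genes named were above the floor on every array. With 3 arrays these distances describe a likeness of 3 values and nothing of shared control.

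**Figure D5:**
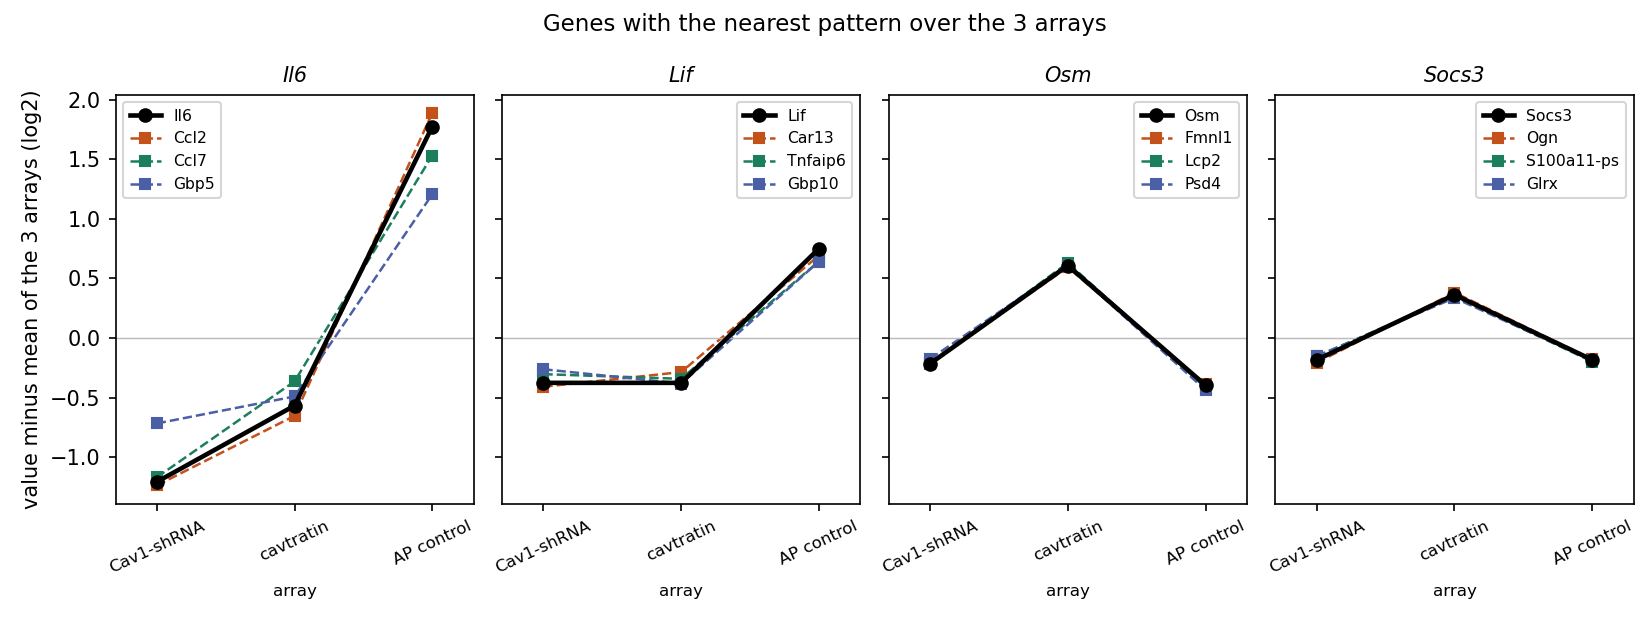
Value minus the gene's own mean over the 3 arrays on the log2 scale (vertical axis) in Cav1-shRNA, cavtratin and AP control (horizontal axis) for Il6, Lif, Osm and Socs3, in black, and the 3 nearest genes of each, dashed, with lines that only join the points of a gene. Il6 and Lif and their nearest genes peak in AP control, and Osm and Socs3 and theirs peak in cavtratin.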

How the data were processed

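Gene expression was measured on 3 Affymetrix whole-transcript arrays, 1 per group, from biotin-labelled cDNA of pooled retinae, per the labels' protocols. The values the authors deposited were taken as log2 values of expression for each probe set, a scale inferred from their range. How they were summarised and normalized is not given in the sources used here. Sorted columns differed by at most 0.209. Of 41345 probe sets, 23521 had 1 symbol and 1814 several in the annotation of the platform, whose names can be old. By Entrez identifier 23328 matched the RefSeq gene table of GRCm38.p6. Python 3.11.15, numpy 2.4.6 and pandas 2.3.3 were used.

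A difference is that of 2 deposited log2 values. No test was run because each group is 1 array, and the number of arrays limits the precision. The members and lists were chosen with earlier results of these data known. Named were all measured members, up to 4 genes of each list with the largest difference that reached the floor on at least 1 array, and the 3 nearest genes of 4 members among those reaching the floor, without predicted models and small RNAs. Others named outside that rule, as equal on all arrays or as cell type markers, were chosen after their values were seen. The counting of 2-fold genes was tested on simulated data. Alternatives were centring, quantile normalization, the mean of a gene's probe sets, other floors and other fold limits.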

Additional observations from a re-analysis of the deposited data

How the results depend on the processing

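Centring the arrays on their medians and quantile normalization left all 12 counts of genes 2-fold apart within 1.5 times, over the measured genes and over the other pathway genes, and moved none of the 27 differences of the measured genes by more than the spread between probe sets. Centring added 0.058 to every difference of Cav1-shRNA from AP control. The mean of all probe sets changed 2 of the 27, both of Socs3, to 0.27 in cavtratin minus AP control and −0.27 in Cav1-shRNA minus cavtratin. It also ended the 2-fold call of Pim1 in cavtratin, so 0 Stat3-responsive genes were called there. Without a floor all 12 counts stayed within 1.5 times. With the floor at the 75th percentile, 8.20, Il6, Lif and Osm all fell under it by construction, so 0 measured genes were higher in cavtratin and 0 lower in either array against AP control. With a 3-fold limit 1 gene was lower in cavtratin and 1 in Cav1-shRNA against AP control, and 0 were higher in cavtratin, and of the other pathway genes 2 were higher in cavtratin against AP control and 1 was lower in Cav1-shRNA against cavtratin. With a 1.5-fold limit 1 measured gene was lower in Cav1-shRNA against cavtratin, and of the other pathway genes 7 were higher and 2 lower in cavtratin and 1 was lower in Cav1-shRNA against AP control. No paired analysis was possible because each group holds 1 array, and for the same reason no array could be left out. Il6 lay under the floor in Cav1-shRNA and cavtratin, and Osm in Cav1-shRNA and AP control, where signal limits the size of a difference.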

Other observations

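Equal values were also described for Lif. The gene was chosen with its differences known, so nothing is read from its place among such genes. Of the 44 genes at least 2-fold from AP control in the same direction in Cav1-shRNA and in cavtratin, Lif was the 1 gene whose Cav1-shRNA and cavtratin values were equal to within 1e-09. Equal in those 2 arrays but different in AP control were 1310 of the 11510 genes that reached the floor, or 11.4%, and the difference of Lif from AP control was the largest in size among them, at −1.12. The value of Lif in those arrays was held by 25 probe sets on all 3 arrays. A value shared with another probe set of the same array was common and was held by 50.3% of probe sets in Cav1-shRNA, 51.7% in cavtratin and 50.8% in AP control. The values of Il6 and Osm on the 3 arrays each belonged to 1 probe set. How values came to be shared is not given in the sources used here.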
